A study of Mus musculus with 5 samples.

Results

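The genes described here build the contacts between neighbouring cells: the claudins Cldn1, Cldn3 and Cldn10, the tight junction proteins Ocln and Tjp1, and the cadherins Cdh1, Cdh2 and Cdh26. They were chosen by name, and their levels were read in single cells of the ventricle walls and spinal cord of the adult mouse. Of the 9 named genes, 8 were found among the 16347 genes of the count table; Cldn5 was not analysed here.

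Tight junctions seal the space between epithelial cells. Claudins form their strands and set which ions pass, occludin (Ocln) is a membrane protein of the same strands, and the scaffold ZO-1 (Tjp1) ties the strands to actin. Classical cadherins such as E-cadherin (Cdh1) and N-cadherin (Cdh2) hold cells together at adherens junctions, where catenins link them to actin. The ependyma that lines the adult ventricles is known for adherens and gap junctions and for a leaky barrier over most of its surface. The subcommissural organ, a gland of modified ependymal cells at the roof of the entrance to the midbrain aqueduct, secretes the giant glycoprotein SCO-spondin, the product of Sspo.

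Cells were profiled one by one with Smart-seq2, which reads full-length cDNA and carries no molecular identifiers, and 1473 cells in 5 samples were analysed. Of these samples, 4 came from FoxJ1CreERT2 R26TdT mice, which carry an inducible Cre recombinase under the promoter of Foxj1, a gene of cells with motile cilia, and a tdTomato reporter. They were the lateral ventricle (240 cells), the third ventricle (245 cells), the midbrain aqueduct (547 cells) and the spinal cord (114 cells), all from the same 10 animals (5 females and 5 males). The fifth sample held 327 midbrain cells of 7 female Nkx2-2Cre R26TrapC mice, in which Cre is driven by Nkx2-2. All animals were 3 months old and all carried a Cre driver with a reporter, so no group lacked one. When Cre was induced is not given in the sources used here. No label tied a cell to an animal, and each group was 1 sample, so there was no replicate and no test between groups. The names given to cells of the lateral and the third ventricle rest on anatomy, since the table called these columns Forebrain and Tanycytes.

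Midbrain and Nkx2-2 line cells were sorted into classes in a fixed order. Levels are CPM, the reads of a gene scaled to the same total of reads in genes for every cell or class. Cells with at least 1000 CPM of Ccdc153, a gene of ciliated ependymal cells, were called ciliated. Of the rest, cells with at least 500 CPM of Sspo were called Sspo-high, cells with at least 500 CPM of the myelin gene Mog were called Mog-high, and the remainder were left as other. The midbrain of the Foxj1 line held 317 ciliated, 196 Sspo-high, 0 Mog-high and 34 other cells, and the Nkx2-2 line held 19, 12, 243 and 53. Median depth per cell lay between 606242 and 1362240 reads over the 10 sample and class groups, with 691446 reads in midbrain ciliated and 757938 in midbrain Sspo-high cells. Markers that the rule did not use were higher in the class they are named for. A list of 10 ependymal genes summed to 11699 CPM in midbrain ciliated and 3715 CPM in Sspo-high cells. Its 9 motile cilia genes, without the secreted Rarres2, summed to 9492 and 3697 CPM. All 9 were lower in Sspo-high cells, but the gap was uneven. It was widest for Tmem212 (3568 and 256 CPM) and narrowest for Cfap126 (1199 and 1106 CPM). The subcommissural organ genes besides Sspo, Spdef and Car3, summed to 148 and 2512 CPM. The Sspo limit fell in a gap, with 0 midbrain cells below the Ccdc153 limit at 250 to 1000 CPM of Sspo. The Ccdc153 limit did not: 71 of 547 cells had between 500 and 2000 CPM of Ccdc153, and 16 of the ciliated cells also passed the Sspo limit.

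On GRCm38 (GENCODE vM21), Cldn3 is a short gene on chromosome 5 (134986214 to 134987472, plus strand). Cldn1 lies on chromosome 16 (26356642 to 26371841, minus strand), Cldn10 on chromosome 14 (118787908 to 118875489, plus strand) and Ocln on chromosome 13 (100496507 to 100552718, minus strand). Tjp1 lies on chromosome 7 (65296165 to 65527781, minus strand), Cdh1 on chromosome 8 (106603351 to 106670246, plus strand) and Cdh26 on chromosome 2 (178430531 to 178487366, plus strand). All 8 are protein-coding, and reads were counted per gene, so transcript variants of a gene were not separated.

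The 250 bases before the annotated start, for Ocln the outermost of its starts, are shown for the claudins that were higher in Sspo-high cells, Cldn3 and Cldn1, and for the genes with most reads in ciliated cells, Cdh26 and Ocln (RefSeq, GRCm38.p6). They are written 5′ to 3′ on the strand of the gene, and capitals mark a match to a searched motif.
Cldn3, chr5:134985964-134986213, plus strand: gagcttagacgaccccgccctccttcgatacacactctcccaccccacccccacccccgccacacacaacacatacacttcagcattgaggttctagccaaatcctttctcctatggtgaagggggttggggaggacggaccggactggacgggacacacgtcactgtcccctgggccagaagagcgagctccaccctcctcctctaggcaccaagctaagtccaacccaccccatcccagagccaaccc
Cldn1, chr16:26371840-26372089, minus strand: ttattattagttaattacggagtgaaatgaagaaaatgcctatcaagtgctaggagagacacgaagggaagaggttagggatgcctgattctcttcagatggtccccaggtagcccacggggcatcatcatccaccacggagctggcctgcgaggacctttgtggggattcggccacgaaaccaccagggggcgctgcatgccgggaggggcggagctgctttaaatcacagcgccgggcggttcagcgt
Cdh26, chr2:178430265-178430514, plus strand: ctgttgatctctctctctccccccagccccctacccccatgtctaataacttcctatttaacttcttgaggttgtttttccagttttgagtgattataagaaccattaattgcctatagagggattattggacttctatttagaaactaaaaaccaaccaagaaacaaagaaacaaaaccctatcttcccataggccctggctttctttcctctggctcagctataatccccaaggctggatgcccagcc
Ocln, chr13:100552719-100552968, minus strand: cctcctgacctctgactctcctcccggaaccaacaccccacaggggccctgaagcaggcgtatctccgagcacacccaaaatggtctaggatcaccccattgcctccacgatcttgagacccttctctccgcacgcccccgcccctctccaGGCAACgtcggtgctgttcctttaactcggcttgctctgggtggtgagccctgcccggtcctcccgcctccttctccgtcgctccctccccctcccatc

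The window searched ran from 250 bases before to 50 bases after each start, on both strands, for CAGGTG (or CACCTG), the E-box read by SNAI and ZEB factors; CCGGAT (or ATCCGG), a core of SPDEF sites; GTTGCC (or GGCAAC), a half-site of RFX factors; and GTAAACA (or TGTTTAC), a forkhead motif. None of the 4 motifs overlaps another by its letters. Of 32851 promoter windows of the same length, 20.2% held the E-box, 6.04% the SPDEF core, 12.5% the RFX half-site and 3.65% the forkhead motif. The windows of Cldn1 and Cdh26 held 0 of these. With the first transcribed base as position 1, the Ocln window of the outermost start held GGCAAC at position -99 and CAGGTG at position 8. The Cldn3 window held CAGGTG at position 32. The window of a second Ocln start held CAGGTG at positions -213 and -68 and no RFX half-site. The former is the same site as the match at position 8. The Tjp1 window held CCGGAT at position -182 and GTTGCC at position 13. The 30 bases around the matches after the start are shown for Cldn3 and Ocln.
Cldn3, chr5:134986234-134986263, plus strand: aaagccacaggCAGGTGcaggggcagtctc
Ocln, chr13:100552692-100552721, minus strand: atcggagtttCAGGTGaatgggtcaccgag
A match of this length is a description of the sequence and not a binding site.

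Sspo-high and ciliated cells of the same midbrain sample differed in 4 of the 8 junction genes. Cldn3, Cldn1 and Cdh1 were higher in Sspo-high cells, and Cdh26 was lower. Ocln, Tjp1, Cdh2 and Cldn10 stayed within 2-fold or were too low to call. A gene was called here when the CPM of the summed reads differed at least 2-fold with at least 10 CPM in the higher class. By this rule 3 of 8 genes were higher in Sspo-high cells, against a background of 12.1% of all genes, and 1 of 8 was lower, against 9.86%. The median log2 ratio, on CPM plus a pseudocount of 1, was 0.34 over the 6 of these genes with a mean of at least 10 CPM and 0.15 over 9988 genes of that level. Both classes came from the same sample. Spread within the sample is given by 7 blocks of 96 consecutive cell numbers, which are not replicates.

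**Figure D1:**
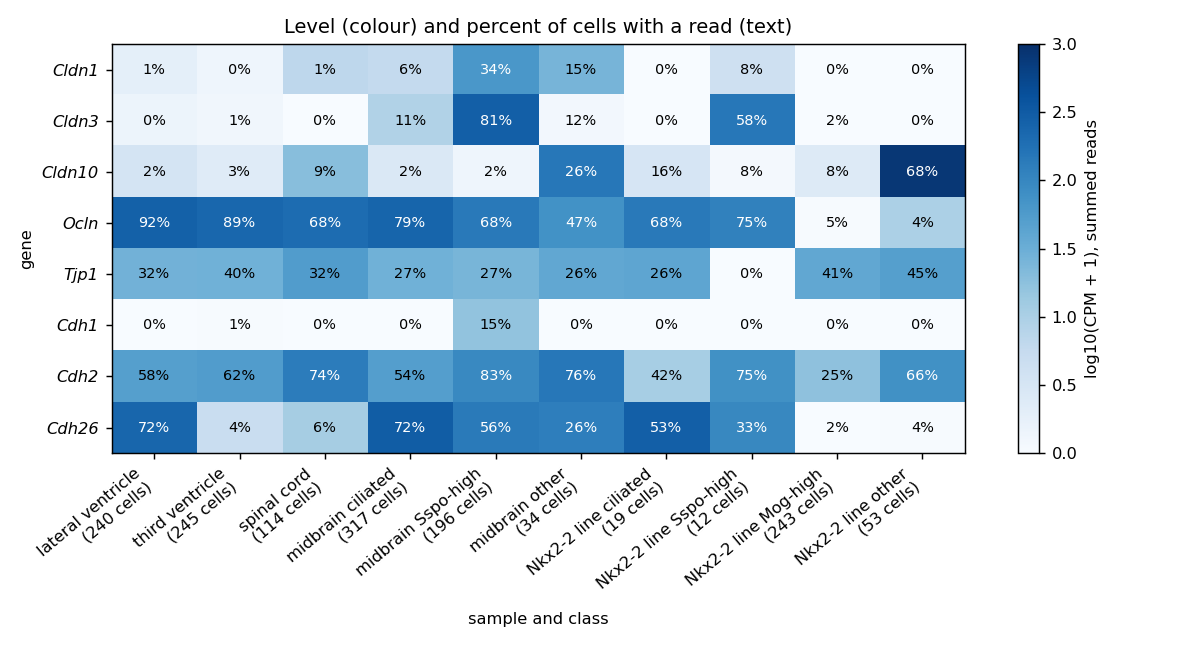
Level of the 8 genes in each sample and class. Colour is log10(CPM + 1) of the summed reads and the text is the percent of cells with at least 1 read, rounded to a whole percent. Cldn3, Cldn1 and Cdh1 stand out in midbrain Sspo-high cells, Cldn10 in the other cells of both midbrain samples, and Cdh26 in the lateral ventricle and midbrain.

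Cldn3, a claudin of barrier-forming epithelia, stood at 281 CPM (95% Poisson interval 279 to 284) in Sspo-high and 7.76 CPM (7.42 to 8.11) in ciliated cells. The blocks ran from 191 to 409 CPM in Sspo-high cells and from 0.0853 to 29.3 CPM in ciliated cells. They did not overlap, and Sspo-high cells were higher in 7 of 7 blocks. Of all genes, 4.32% were called higher with blocks apart, 2 of these 8 among them (Cldn3 and Cldn1). The level was 36.3-fold higher in Sspo-high cells (34.7 to 37.9, counting error only). A Cldn3 read was found in 80.6% of Sspo-high cells (95% exact binomial interval 74.4 to 85.9) and in 10.7% of ciliated cells (7.54 to 14.7). Most of the ciliated cells with a read held very little: their median was 1.64 CPM, against 263 CPM in the Sspo-high cells with a read. With every cell thinned to 100000 reads the shares were 78.1% and 4.42%. Mog-high cells of the Nkx2-2 line, an oligodendrocyte class at a median of 1362240 reads, gave a read in 1.65% of cells.

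Cldn1, the claudin that seals the skin barrier, was read in fewer cells. It stood at 62.5 CPM (61.3 to 63.7) in Sspo-high and 4.89 CPM (4.62 to 5.16) in ciliated cells, a 12.8-fold difference (12.1 to 13.6). The blocks ran from 19.2 to 158 CPM against 0.0250 to 14.0 CPM and did not overlap. A read was found in 34.2% of Sspo-high cells (27.6 to 41.3) and 6.31% of ciliated cells (3.90 to 9.58), and in 0 of 243 Mog-high cells, which allows a share of up to 1.23% by a floor of 3 cells (exact upper limit 1.51%). Within the class the level was uneven: the median Sspo-high cell had 0 CPM and the upper quartile was 89.0 CPM.

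Cdh1, E-cadherin, the classical cadherin of epithelia, had 2508 reads in Sspo-high cells and 0 in ciliated cells of the midbrain. Its level in Sspo-high cells was 15.3 CPM (14.7 to 15.9), 1308-fold above a floor of 3 reads over the ciliated class. That fold covers counting error only and not the spread between cells. The reads came from 29 of 196 Sspo-high cells, or 14.8% (10.1 to 20.6). None of 317 ciliated cells held a read, which allows a share of up to 0.946% by a floor of 3 cells (exact upper limit 1.16%). In 6 of 7 blocks Sspo-high cells had Cdh1 reads, up to 26.9 CPM, and block 3, with 20 Sspo-high cells, had 0. Over all other groups Cdh1 had 7 reads, 1 in the lateral and 6 in the third ventricle.

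Cdh2, N-cadherin, the classical cadherin of neural epithelium (GRCm38 chromosome 18, 16588877 to 16809246, minus strand), was read in both classes. It stood at 92.6 CPM (91.2 to 94.1) in Sspo-high and 49.6 CPM (48.8 to 50.5) in ciliated cells, 1.87-fold apart and short of the 2-fold limit. Sspo-high cells were higher in 7 of 7 blocks, but the block ranges overlapped, 9.36 to 137 CPM against 2.39 to 78.9 CPM. The shares of cells with a read were 82.7% (76.6 to 87.7) and 53.9% (48.3 to 59.5). Both classes had their lowest Cdh2 in block 6, where the median cell also had the fewest detected genes, 4372 in Sspo-high and 3952 in ciliated cells. Without that block the ratio was 1.77-fold. In the cells of the second sequencing project alone, as read from codes in the sample title, it was 2.25-fold, and called.

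Cdh26, a cadherin described in human airway and gut epithelium, ran the other way. It stood at 298 CPM (295 to 299.6) in ciliated and 135 CPM (133 to 137) in Sspo-high cells, 2.21-fold lower in the latter. Ciliated cells were higher in 7 of 7 blocks, although the ranges overlapped (187 to 463 CPM against 74.9 to 249 CPM). The call rested on block 3, where ciliated cells were highest; without it the ratio was 1.89-fold. The cells with a Cdh26 read made up 71.9% (66.6 to 76.8) of ciliated and 56.1% (48.9 to 63.2) of Sspo-high cells, and the median of those cells was 304 CPM and 205 CPM. The share was 2.47% in Mog-high cells.

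Ocln was 1.72-fold lower in Sspo-high cells (139 CPM, 137 to 141) than in ciliated cells (239 CPM, 237 to 241). Ciliated cells were higher in 7 of 7 blocks, the ranges overlapped (113 to 308 CPM against 46.9 to 220 CPM), and the difference stayed under the 2-fold limit. A read was found in 68.4% and 79.2% of cells, and in 4.94% of Mog-high cells. Tjp1 stood at 24.2 CPM (23.5 to 25.0) in Sspo-high and 28.1 CPM (27.4 to 28.7) in ciliated cells, 1.16-fold apart, with reads in 27.0% and 27.4% of cells. Its block ranges, 7.09 to 32.1 CPM and 6.74 to 40.5 CPM, lay over each other, and it was 1.27-fold higher in Sspo-high cells of the second sequencing project. Cldn10, a claudin that forms ion-selective pores, was near absent from both classes, at 0.367 CPM in Sspo-high and 1.74 CPM in ciliated cells, with reads in 2.04% and 2.21% of cells.

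**Figure D2:**
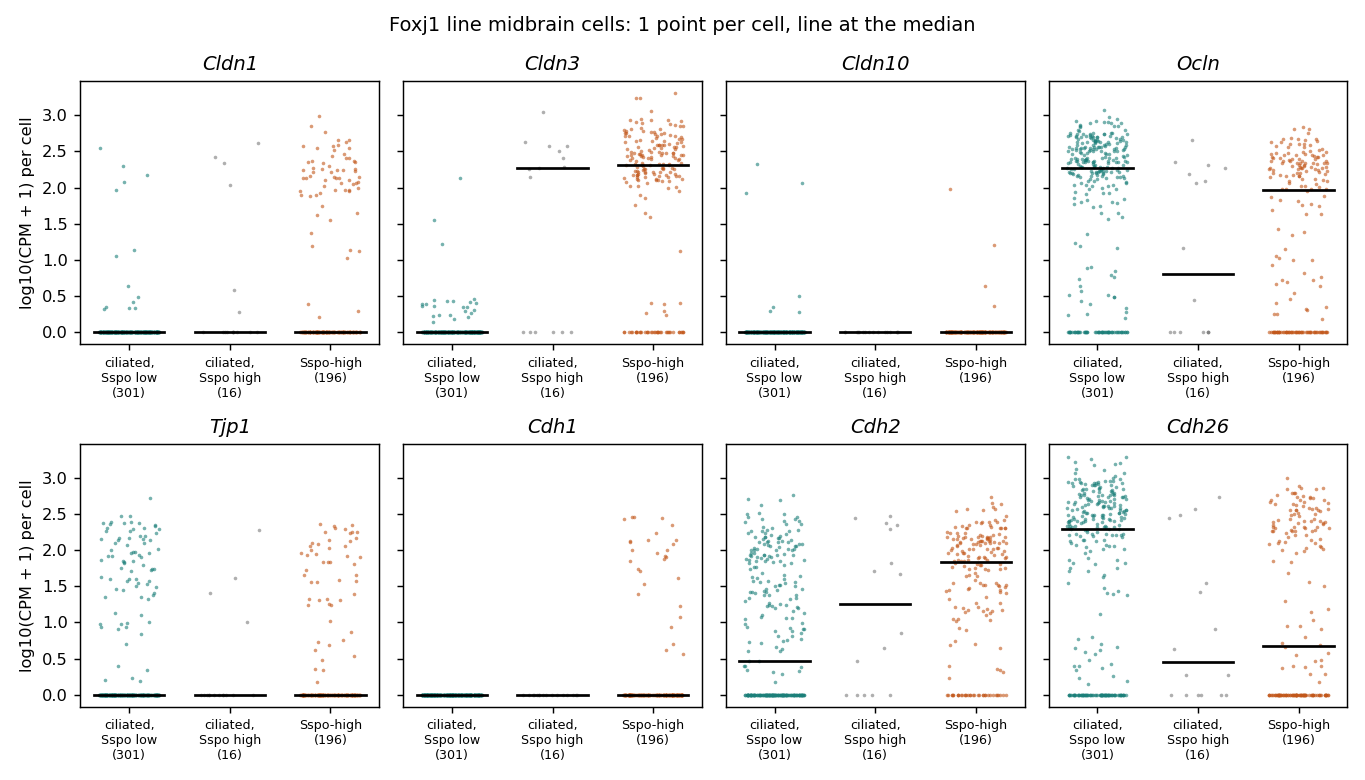
Level in every midbrain cell of the Foxj1 line, as log10(CPM + 1), 1 point per cell, for ciliated cells below the Sspo limit (301), ciliated cells past it (16) and Sspo-high cells (196); the black line is the median. Cldn3 fills most Sspo-high cells and is sparse among the 301 ciliated cells, while Cldn1 and Cdh1 reads lie in a minority of Sspo-high cells.

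Read per kilobase of exon, so that genes can be ranked within a class, the leading gene changed. In ciliated cells the order was Cdh26 (98.8 CPM per kilobase), Ocln (56.6), Cldn3 (6.16), Cdh2 (6.15), Tjp1 (3.59), Cldn1 (1.01), Cldn10 (0.673) and Cdh1 at 0. In Sspo-high cells it was Cldn3 (223 CPM per kilobase), Cdh26 (44.8), Ocln (32.8), Cldn1 (12.9), Cdh2 (11.5), Cdh1 (3.35), Tjp1 (3.10) and Cldn10 (0.142). Cldn3 thus led in Sspo-high and not in ciliated cells. Of its 1985 reads in ciliated cells 1791 lay in the 16 cells that also passed the Sspo limit, and in the other 301 it stood at 0.628 CPM per kilobase, below Cdh2, Tjp1 (3.65) and Cldn10 (0.701). The median Sspo-high cell held reads of 4 of the 8 genes, with a range of 1 to 6, and the median ciliated cell of 2, with a range of 0 to 6.

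Within Sspo-high cells the junction genes were read together about as often as their separate shares give. Cldn3 and Cldn1 were both read in 56 cells, against 54.0 from the product of their shares. Cldn3 and Cdh1 were both read in 25 cells, against 23.4, and Cldn1 and Cdh1 in 9 cells, against 9.91. Cells with a Cldn3 read had a median of 782912 reads and those without 578132, a difference in depth that moves with detection and whose part in it was not tested.

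Along the Sspo level of the cell, Cldn3 was low up to 500 CPM of Sspo and high from 2000 CPM on. Over all 547 midbrain cells it stood at 0.0885 CPM in the 275 cells under 10 CPM of Sspo, 0.304 CPM in 39 cells between 10 and 100 CPM, and 9.96 CPM in 21 cells between 100 and 500 CPM. It was 325 CPM in 112 cells between 2000 and 10000 CPM of Sspo and 215 CPM in 98 cells above that. Cdh1 had 0 reads in every bin under 2000 CPM of Sspo and then 12.7 and 16.5 CPM. Cldn1 had 1.86, 18.3 and 23.5 CPM in the first 3 bins and 64.2 and 58.2 CPM in the last 2. The second and the third of these values came from 2 of 39 and 4 of 21 cells, and the share of cells with a read was 4.73%, 5.13% and 19.0% in the first 3 bins and 35.7% and 32.7% in the last 2. Cdh26 was 248 and 238 CPM in the second and the third bin and 128 and 139 CPM in the last 2, and Ocln was 235 CPM in the first bin and 149 and 122 CPM in the last 2.

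**Figure D3:**
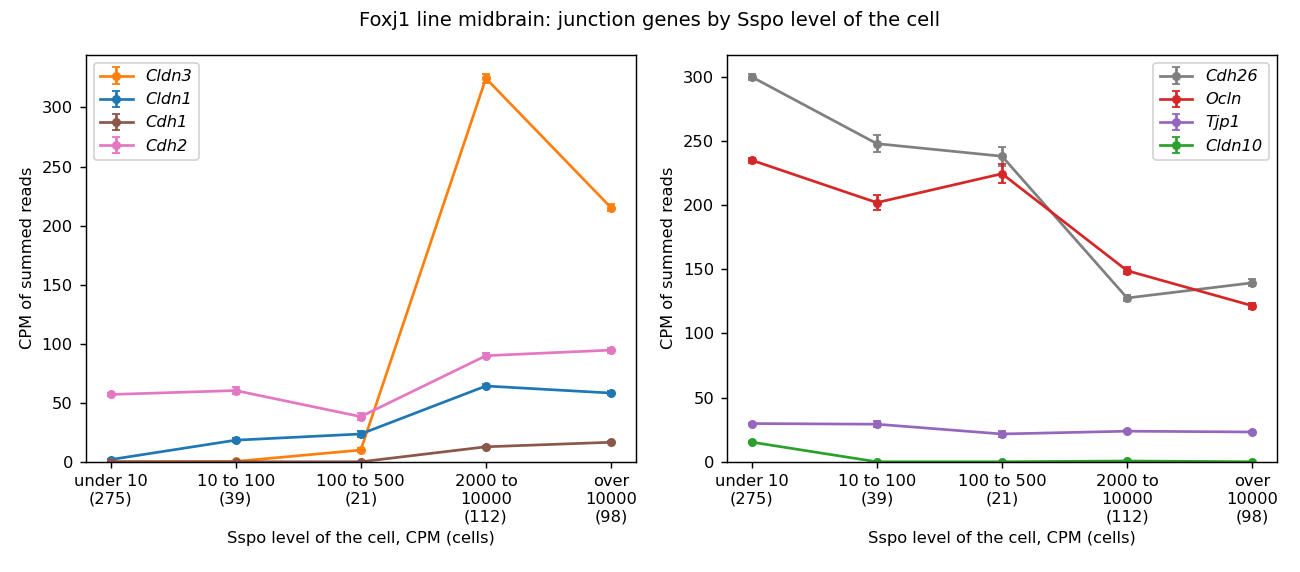
CPM of summed reads against the Sspo level of the cell in all midbrain cells of the Foxj1 line, with the number of cells in brackets and 95% Poisson bars; the bin of 2 cells between 500 and 2000 CPM is left out. Cldn3 is under 10 CPM below 500 CPM of Sspo and above 200 CPM from 2000 CPM on, while Cdh26 and Ocln are highest in the first bin.

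The 16 ciliated cells that also passed the Sspo limit had claudin levels near those of Sspo-high cells. They held 1468 CPM of Ccdc153 and 11011 CPM of Sspo. Cldn3 stood at 173 CPM in them, with a read in 10 of the 16, and Cldn1 at 49.9 CPM. Cdh26 and Ocln stood at 104 and 102 CPM, and Cdh1 had 0 reads. The other 301 ciliated cells had 0.790 CPM of Cldn3, 2.99 CPM of Cldn1, 306 CPM of Cdh26 and 245 CPM of Ocln. Against those 301 cells, Cldn3 was 356-fold and Cldn1 20.9-fold higher in Sspo-high cells, so the size of the claudin ratios turns on where these few cells are put.

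Markers of other cell types were read in the same classes. Of 7 choroid plexus markers 5 were measured, and their sum was 593 CPM in ciliated and 1037 CPM in Sspo-high cells. Ttr alone went from 37.5 to 795 CPM, while Folr1 (501 and 232 CPM), Clic6 (37.9 and 0.0306 CPM), Kcne2 (3.24 and 0.722 CPM) and Cldn2 (13.1 and 9.21 CPM) were lower in Sspo-high cells. Of 7 mural and meningeal markers 3 were measured, with a sum of 21.8 CPM in ciliated and 115 CPM in Sspo-high cells, nearly all of it Vtn (20.8 and 113 CPM). The 3 of 9 endothelial markers measured summed to 41.6 and 19.6 CPM, 8 oligodendrocyte markers to 90.1 and 63.8 CPM, and 7 astrocyte markers to 1666 and 488 CPM. The oligodendrocyte precursor, microglia, neuron and tanycyte lists summed to at most 41.0 CPM in either class. The part of these transcripts in the junction gene levels was not tested.

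Around these genes, a wider list of 123 junction genes, of which 87 were measured, held genes called in both directions, often within 1 family. In Sspo-high cells 14 were higher, 19 lower and 54 not called, with 7 of the 14 and 10 of the 19 also free of block overlap (4.32% and 5.14% of all genes). Over the list, 16.1% were higher and 21.8% lower, against 12.1% and 9.86% of all genes. The median log2 ratio of the 53 list genes with a mean of at least 10 CPM was 0.08.

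Cadherins split evenly, with 4 of 20 higher and 4 lower (20% each, against 12.1% and 9.86% of all genes). The type II classical cadherins Cdh20 (182 and 7.44 CPM in Sspo-high and ciliated cells), Cdh11 (306 and 18.0 CPM) and Cdh8 (126 and 8.53 CPM) were 24.4-fold, 17.1-fold and 14.7-fold higher in Sspo-high cells, all with blocks apart. Cdh11 was read in 92.3% of Sspo-high and 16.1% of ciliated cells. Cdh7, of the same type, went the other way, with 3 reads or 0.0183 CPM in Sspo-high and 19.1 CPM in ciliated cells, a 1044-fold difference with a counting interval of 357 to 5063. Fat4 and Dchs1, which bind each other across cell borders in planar polarity, were both lower in Sspo-high cells, at 1.21 against 16.9 CPM and at 45.2 against 178 CPM, again with blocks apart.

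Among tight junction proteins, the MARVEL family split between its members. Marveld3 was 7.56-fold higher in Sspo-high cells (33.2 and 4.39 CPM), and Marveld2, known as tricellulin, was 10.4-fold lower (1.39 and 14.4 CPM); the blocks of both overlapped. Of 10 scaffolds 4 were higher and 2 lower (40% and 20%, against 12.1% and 9.86% of all genes). The 4 were Cgn, the tight junction protein cingulin (19.8 and 3.55 CPM), and the membrane-associated scaffolds Magi1 (63.6 and 22.2 CPM), Magi2 (45.2 and 16.2 CPM) and Magi3 (11.4 and 2.64 CPM). Of the 9 other claudins measured 0 were higher, and 1, Cldn9, was lower (1.43 against 18.2 CPM), a share of 11.1%, near that of all genes. In the polarity complexes 0 of 15 were higher and 4, or 26.7%, lower. The junctional adhesion molecules Jam2 (150.4 and 61.6 CPM) and Jam3 (77.1 and 301 CPM), named here after their values were seen, went opposite ways with blocks apart.

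Of 13 catenins and adherens scaffolds 2 were higher and 3 lower in Sspo-high cells (15.4% and 23.1%, against 12.1% and 9.86% of all genes). Of 5 desmosomal genes 2 were higher and 1 lower (40% and 20%), a count too small to set against those shares. The desmosomal cadherin Dsg2 was 10.6-fold lower (7.47 against 79.5 CPM), and Jup, the plakoglobin that serves both desmosomes and adherens junctions, 7.40-fold lower (24.7 against 183 CPM). Ctnna3, an alpha-catenin, stood at 0.324 against 18.4 CPM, and Arvcf, a catenin of the p120 family, at 33.6 against 224 CPM. Cadm1, an immunoglobulin-type adhesion molecule, was 5.33-fold lower (74.2 against 395 CPM). These 5 had blocks apart. Perp, a membrane protein of desmosomes, was 8.24-fold higher (70.5 and 8.55 CPM), and Pkp4, a plakophilin-type protein of the p120 family, 3.79-fold higher (152 and 40.1 CPM).

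**Figure D4:**
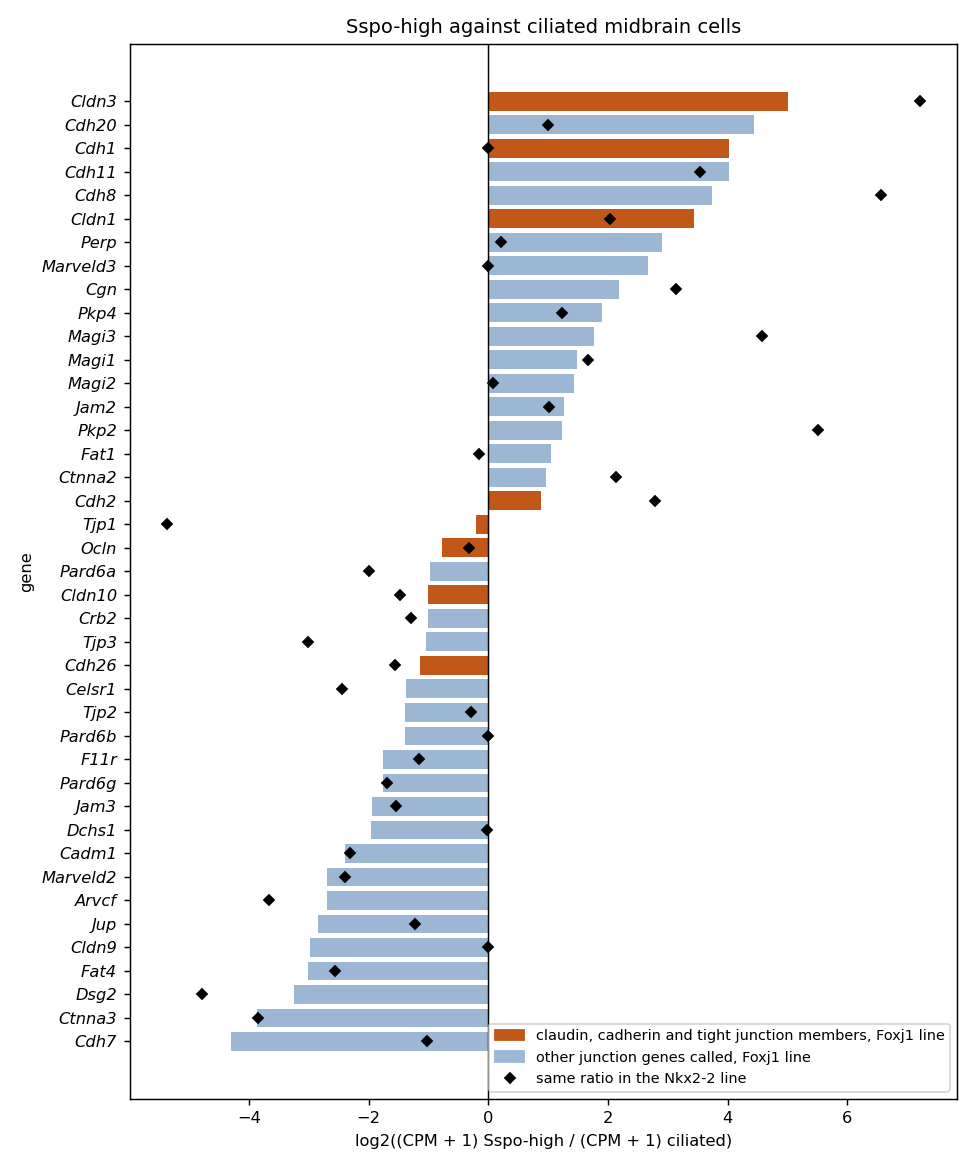
Log2 ratio of (CPM + 1) in Sspo-high over ciliated midbrain cells for the 8 genes and for the 33 other junction genes called (at least 2-fold, with at least 10 CPM in the higher class). Bars are the Foxj1 line and diamonds the Nkx2-2 line, where the classes hold 12 and 19 cells; the genes were chosen on the Foxj1 line, so the bars carry no evidence of their own.

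In the Nkx2-2 line, whose cells played no part in those calls, the same classes were small but came from other animals. There 21.2% of all genes were called higher and 16.8% lower in the 12 Sspo-high against the 19 ciliated cells. Cldn3 stood at 147 CPM in Nkx2-2 line Sspo-high cells and had 0 reads in Nkx2-2 line ciliated cells. The level was 998-fold above a floor of 3 reads over the ciliated class, which covers counting error only and not the spread between cells. Cldn3 was read in 7 of the 12 cells, at 106 to 485 CPM per cell, and in 0 of the 19. At 19 cells a share of cells with a read of up to 17.6% is allowed (exact upper limit). Cdh2 was 7.47-fold higher (74.2 and 9.94 CPM) and Cdh26 2.98-fold lower (95.1 and 284 CPM). The Cdh2 value of the ciliated cells rested on 202 reads, 47.0% of them from 1 cell, and was 5.67 CPM without it. Ocln was 1.25-fold lower (113 and 142 CPM).

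Not every midbrain difference was found in the second line. Cdh1 had 0 reads in both Nkx2-2 line classes, and at 12 cells a share of cells with a read of up to 25% is allowed by a floor of 3 cells (exact upper limit 26.5%). Cldn1 had 44 reads, all in 1 Nkx2-2 line Sspo-high cell. Tjp1 had 0 reads in the 12 Sspo-high cells and stood at 40.2 CPM in the ciliated cells, where 26.3% of cells had a read. Of those ciliated reads 50.6% came from 1 cell, and the level was 21.2 CPM without it. The exact upper limit of 26.5% holds for Tjp1 in the 12 cells too, near the 27.0% of Foxj1 line Sspo-high cells with a Tjp1 read. With Tjp1 counted as lower, 2 of 8 genes were called higher and 2 lower. Of the 14 list genes higher in the Foxj1 line, 9 were called higher, 0 lower and 5 not called here. Of the 19 lower, 12 were called lower, 0 higher and 7 not called. The same count over all genes called in the Foxj1 line is not reported here, so these counts have no background beside them. Oligodendrocyte markers summed to 6171 CPM in the ciliated and 4471 CPM in the Sspo-high cells of this line. The median cell had 90.0 and 109 CPM of them, and the highest cell 99843 and 86800 CPM. The part of these transcripts in the junction gene values was not tested.

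Outside the ependymal classes, the claudin that stood out was Cldn10. It had 820 CPM (812 to 829) in the 53 other cells of the Nkx2-2 line, with a read in 67.9% (53.7 to 80.1), and 146 CPM in the 34 other cells of the Foxj1 midbrain, with a read in 26.5%. In Mog-high cells it was 1.38 CPM, 90.3% of it from 1 cell. When the other cells were divided by which marker list summed highest, a division chosen after the data were seen, the 25 Nkx2-2 line cells led by astrocyte markers had 2071 CPM of Cldn10 with a read in 88.0%. The 28 cells led by oligodendrocyte precursor markers had 82.4 CPM with a read in 14 of them. Of the 34 midbrain cells 32 were led by astrocyte markers, with 158 CPM. The midbrain other cells also showed 122 CPM of Cdh26, but 98.7% of those reads came from 1 cell, and without it the level was 1.67 CPM.

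Mog-high cells held few of these genes. Tjp1 stood at 37.9 CPM (37.2 to 38.5) with a read in 40.7% of cells, and Cdh2 at 16.2 CPM (15.8 to 16.6) with a read in 24.7%. Ocln, Cdh26, Cldn3, Cldn1 and Cdh1 lay between 0 and 0.0425 CPM. Over all groups, Tjp1 lay between 24.2 and 52.4 CPM in 9 of 10 and had 0 reads in the tenth, the Nkx2-2 line Sspo-high cells.

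Between the 4 regions of the Foxj1 line, Cdh26 had the widest range among the 5 genes that reached 10 CPM in a region. It stood at 298 CPM in midbrain ciliated cells, at 238 CPM (235 to 240) in lateral ventricle cells, at 10.1 CPM (9.50 to 10.8) in the cord and at 3.93 CPM (3.66 to 4.21) in cells of the third ventricle. A Cdh26 read was found in 72.5% of lateral ventricle cells (66.4 to 78.0), 6.14% of spinal cord cells (2.50 to 12.2) and 3.67% of cells of the third ventricle (1.69 to 6.86). The highest and lowest regions were 75.8-fold apart. Lateral ventricle blocks (217 to 270 CPM) overlapped those of the midbrain and stood clear of the spinal cord (3.66 and 21.4 CPM), which overlapped the third ventricle (0 to 13.7 CPM).

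The spinal cord stood apart for Cdh2 and Cldn10. Cdh2 was 131 CPM in the spinal cord (blocks of 130 and 131 CPM), against cells of the third ventricle at 52.0 CPM, midbrain ciliated cells at 49.6 CPM and lateral ventricle cells at 48.4 CPM, whose blocks overlapped each other. Cldn10 was 18.4 CPM in the spinal cord (blocks of 14.6 and 25.1 CPM), with a read in 10 of 114 cells, and 1.29 to 2.29 CPM elsewhere. Ocln had the narrowest range of the 5, 1.33-fold: lateral ventricle cells had 266 CPM, midbrain ciliated cells 239 CPM, those of the third ventricle 231 CPM and spinal cord cells 200.4 CPM. The blocks of neighbours in that order overlapped. Tjp1 was 52.4 CPM in the spinal cord and 27.4 to 28.1 CPM in the other regions, with overlapping blocks (33.9 and 63.1 CPM in the cord, 6.74 to 40.5 CPM in the midbrain).

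Cldn3 was at most 0.437 CPM in the other 3 regions, and the 7.76 CPM of midbrain ciliated cells was 0.790 CPM without the 16 cells past the Sspo limit. All Cldn1 reads of the spinal cord came from 1 cell, as did 98.2% of those in the lateral ventricle. Against midbrain ciliated cells, 0 of 8 genes were called higher or lower in the lateral ventricle (1.39% and 1.7% of all genes). In the third ventricle 0 were higher (3.15% of all genes) and 1, Cdh26, was lower (1.94%). In the spinal cord 2, Cldn10 and Cdh2, were higher (5.65%) and 1, Cdh26, was lower (6.78%). The regions entered whole: 239 of 240, 240 of 245 and 99 of 114 cells passed the Ccdc153 limit, and the calls with those cells alone were the same in number. The spinal cord also had fewer detected genes per cell, a median of 3980 against 4866 in midbrain ciliated cells.

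**Figure D5:**
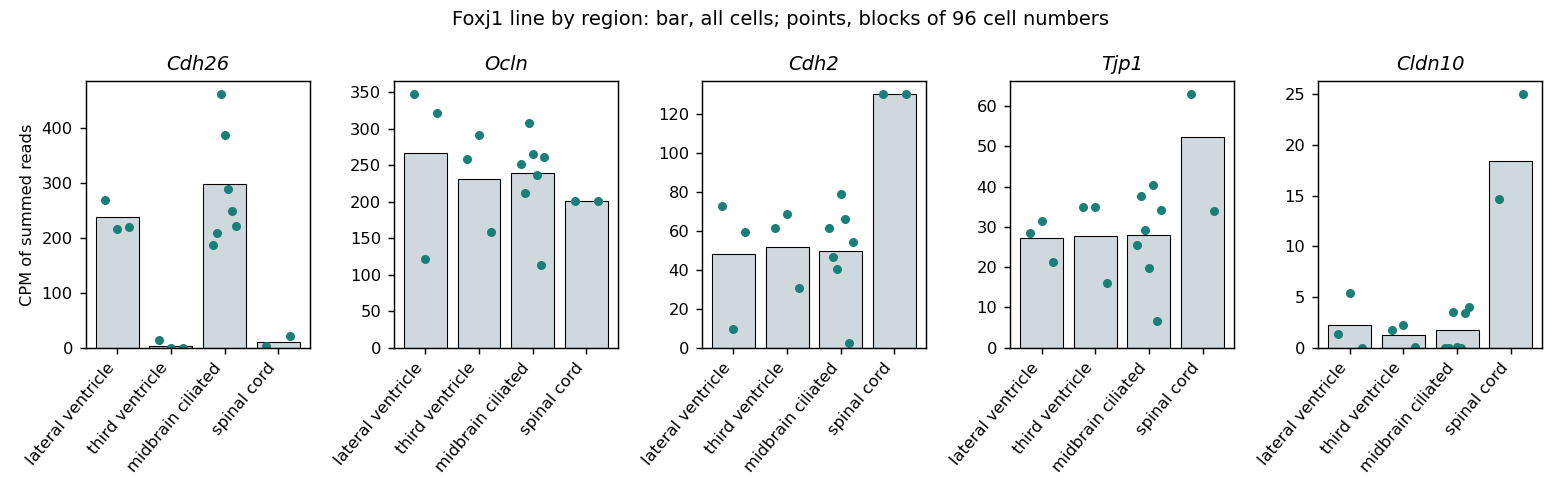
CPM of summed reads in the 4 regions of the Foxj1 line for 5 genes; bars are all cells of the region (midbrain: ciliated cells), points are blocks of 96 cell numbers. Cdh26 is high in the lateral ventricle and midbrain and low in the third ventricle and spinal cord, Cdh2 and Cldn10 are highest in the spinal cord, and Ocln overlaps throughout.

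The genes whose log2(CPM + 1) ran closest to the junction genes over the 10 sample and class groups were looked up among 13381 genes that reached 10 CPM in at least 1 group. Groups of the Foxj1 line share animals, and so do groups of the Nkx2-2 line. The 10 groups are therefore not independent, and the correlations are descriptions. For Cldn3 these were Mamstr, a coactivator of MEF2 factors (Pearson r = 0.998), and Skap1, an adaptor known from T cells (r = 0.997), which stood at 104 CPM in midbrain Sspo-high and 5.42 CPM in ciliated cells. Cdh1 ran with Zp1 and Tacr3, both r above 0.99, which like Cdh1 had reads mainly in midbrain Sspo-high cells (10.2 and 21.2 CPM).
For Ocln the nearest were Lrrc9 (r = 0.996) and Ccdc103 (r = 0.995), a gene needed for dynein arms of motile cilia; both were low in Mog-high cells (0.0312 and 0.0652 CPM). Tjp1 ran with Dbt (r = 0.997) and Snx24 (r = 0.979). In the 12 Nkx2-2 line Sspo-high cells Tjp1 and Snx24 had 0 reads and Dbt stood at 0.0698 CPM. In the other groups Dbt was at least 15.6 CPM and Snx24 at least 13.7 CPM. How far that 1 small group sets these r values was not tested. Cldn1 ran with Phkb (r = 0.931) and Rpl3.Ps1 (r = 0.906), Cdh2 with Sh3bgrl (r = 0.967) and Ogt (r = 0.953), and Cdh26 with St3gal5 (r = 0.948) and Gm15689 (r = 0.943).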

How the data were processed

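Single cells were sorted into 96-well plates and made into Smart-seq2 libraries, per the labels' protocols. The authors deposited raw read counts per gene and cell, and a second deposited table of log2 values, in which each count is scaled by a cell's size factor before 1 is added and the log2 is taken; it served as an alternative only. STAR 2.3.1o, Seurat 3 and mm10 are named in the submitters' processing notes; the counting tool, annotation and size factor method are not given in the sources used here. The counts of all cells in a class were added up and scaled to CPM with Python 3.11.15, numpy 2.4.6 and scipy 1.17.1, and 0 columns lacked a sample. All 1473 cells were kept, the shallowest with 108417 reads. Intervals are exact Poisson or Clopper-Pearson at 95%; with no molecular identifiers, reads are not separate molecules, and intervals and floors (3 reads) cover counting error only. No doublet caller was run on these sorted wells; dropping the cells with most genes was an alternative. With 1 sample a group no test was made. In simulated data with counting error only, the call rule (2-fold, 10 CPM) recovered planted changes larger than its fold limit, in genes above its level limit. That simulation held no spread between cells, so it cannot show how the rule does near its limits or in unevenly read genes. Blocks assume that cell numbers follow well order. The members, lists and limits were chosen with earlier results of these data known. Of the wider list the genes called were named, at most 10 per direction by fold; for each member the 2 nearest genes by correlation were named, except for Cldn10, where they are not reported here. Alternatives were other class limits, scalings, call rules, sequencing projects and left-out blocks.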

Additional observations from a re-analysis of the deposited data

How the results depend on the processing

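Cldn1, Cldn3 and Cdh1 were called higher in Sspo-high than in ciliated midbrain cells under all 19 class limits, scalings, projects and left-out blocks tried. Their log2 ratios ran from 2.51 to 3.99, from 3.29 to 7.75 and from 2.57 to 4.44. Of the 19, the Sspo limit at 100 CPM gave the same values as the main limit, so it added no separate check. Cdh26 (-1.28 to -0.92) was called lower in 18 and Cdh2 (0.72 to 1.15) higher in 1 of the 19, and Tjp1 (-0.49 to 0.33) was higher in 1. Cldn3 was 10.1-fold higher with the Ccdc153 limit at 500 CPM, 91.0-fold at 2000 CPM, 23.9-fold in the first and 598-fold in the second sequencing project; the cause was not tested. With each block left out in turn, 3 members stayed higher and 0 to 1 lower (0 without block 3), 12 to 15 list genes were higher and 17 to 21 lower, and 1978 to 2108 of all genes were higher and 1603 to 1643 lower. With no minimum level 2 members and 31 list genes were lower, and 3233 of all genes were higher and 3318 lower. At 50 CPM 8 list genes were higher and 11 lower, and 833 and 799 of all genes, since fewer genes can pass. Cdh1, at 15.3 CPM in Sspo-high cells, could not be called there. At 1.5-fold Cdh2 (1.87-fold) also passed as higher, beside 3354 of all genes. Ocln (1.72-fold) also passed as lower, which made 2 members lower, and the number of all genes lower is not reported here. Against midbrain cells of the first project alone, the lateral ventricle had 1 member lower, the third ventricle 2 and the spinal cord 2, where the midbrain level of Cldn3 was 10.8 CPM. Leaving out blocks between regions, added after the data were seen, gave for the lateral ventricle 0 higher and 0 lower, for the third ventricle 0 higher and 1 lower, and for the spinal cord 2 to 3 higher and 1 lower. Calls under these region settings were counted for the members only, so no share of all genes stands beside them. Between Sspo-high and ciliated cells the median log2 ratio of 8437 genes with at least 10 CPM in both was 0.14. No paired analysis was possible because each group is 1 sample. Cell number limits the Nkx2-2 line (12 and 19 cells), and each sample mixes animals, so differences between animals could not be separated.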

Other observations

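Block 6, the first block of the second sequencing project, held the lowest value of its class for 47.2% of the 53 junction list genes in midbrain ciliated cells and 48.1% of the 52 in Sspo-high cells, against 31.3% and 34.2% of all genes at or above 10 CPM. In the lateral ventricle, block 2 had the fewest detected genes (a median of 4424) and the lowest Cdh2 (9.59 CPM, against 73.0 and 59.7 CPM) and Ocln (121 CPM, against 348 and 322 CPM), while its Cdh26 (217 CPM) lay close to the other blocks (220.3 and 270 CPM).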
